A study of Mus musculus with 39 samples.

Results

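The blood-testis barrier junction genes described here are 10 genes chosen by name, Cldn3, Cldn5, Cldn11, Ocln, Tjp1, Gja1, Cdh2, F11r, Jam2 and Jam3, out of the 21561 Ensembl genes listed in both count tables of the series. All 10 were found in both tables, and all 10 passed the filter on low counts in every comparison below. RNA was sequenced from whole testis and from gubernaculum, the cord that draws the testis towards the scrotum, of male C57BL/6J mice. Wild-type (WT) mice were compared with homozygous INSL3-KI mice, which carry minke whale INSL3 cDNA at the mouse locus after removal of the neomycin cassette with Cre, and with INSL3-KO mice, labelled as knockouts of the gene and made in a way not given in the sources used here. Both mutants are cryptorchid at sexual maturity according to the study, with inguinal testes in INSL3-KI and abdominal testes in INSL3-KO. Testes were taken at postnatal day 8 (P8) and P23 from all 3 genotypes and at P40 from WT and INSL3-KI, which makes 24 testis libraries in groups of 3. Gubernacula came from every genotype at P8 and, without INSL3-KO, again at P23. The mutation is present in the whole animal, and bulk RNA mixes all cells of the organ, so that fewer cells of a type and less RNA per cell cannot be told apart.

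The 39 libraries held 29861447 to 45260372 counts each (33000204 to 42629270 in testis). All INSL3-KO libraries and those of WT testis at P23 stand in a second table, separate from all others. The table therefore cannot be told apart from the genotype where INSL3-KO is compared with WT at P8 or INSL3-KI is compared with WT at P23. The same holds for INSL3-KI against INSL3-KO at P8 and at P23. The targeted gene, Insl3, had 2722 to 3524 counts per library in WT testis at P8, 20844 to 25238 at P23 and 20183 to 29799 at P40. INSL3-KI testes had 15 to 33, 52 to 84 and 443 to 511 counts at these ages, and INSL3-KO testes had 0 to 5 at P23. The P8 testis libraries labelled INSL3-KO had 613 to 906 Insl3 counts, and which part of the gene was deleted or counted is not known here. They are therefore called libraries labelled INSL3-KO, and every direction drawn from them rests on that label.

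The barrier is built by Sertoli cells, the somatic cells that span the wall of the seminiferous tubule and nurse the germ cells. Neighbouring Sertoli cells join near the base of the tubule through tight junctions, gap junctions and an actin-rich adherens junction called the basal ectoplasmic specialization, and the seal closes in the weeks after birth, as the first germ cells pass into meiosis. Claudins and occludin form the sealing strands, ZO-1 ties them to actin, and germ cells must cross the seal without opening it. Other epithelia and blood vessels use many of the same genes, so none of the 10 marks the Sertoli cell alone.

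Among the strand proteins, Cldn11 (ENSMUSG00000037625) encodes the claudin that the Sertoli cell seal cannot do without. It lies on the forward strand at chr3:31149920-31164324 (build GRCm38, GENCODE M21 annotation). Cldn3 (ENSMUSG00000070473), at chr5:134986214-134987472 on the forward strand, encodes a claudin of newly formed Sertoli cell junctions and of many other epithelia, and overlaps the antisense gene Wbscr25. Since the sources used here do not state whether counting used strand, reads of these overlapping genes cannot be told apart. In INSL3-KO testis at P23 the first was higher and the second lower than in WT, and the 250 bases before their starts (RefSeq, build GRCm38.p6) are printed for that reason. They were searched on both strands for a CCAAT box (CCAAT), a GC box (GGGCGG), a cAMP response element (TGACGTCA) and an androgen receptor half-site (AGAACA), none of which overlaps another, and capitals mark the matches.
Cldn11, chr3:31149670-31149919, forward strand: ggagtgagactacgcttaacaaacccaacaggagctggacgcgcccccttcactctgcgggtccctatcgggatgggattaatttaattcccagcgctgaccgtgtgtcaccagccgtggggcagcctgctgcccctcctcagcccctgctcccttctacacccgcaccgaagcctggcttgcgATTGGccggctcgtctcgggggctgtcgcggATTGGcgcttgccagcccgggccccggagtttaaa
Cldn3, chr5:134985964-134986213, forward strand: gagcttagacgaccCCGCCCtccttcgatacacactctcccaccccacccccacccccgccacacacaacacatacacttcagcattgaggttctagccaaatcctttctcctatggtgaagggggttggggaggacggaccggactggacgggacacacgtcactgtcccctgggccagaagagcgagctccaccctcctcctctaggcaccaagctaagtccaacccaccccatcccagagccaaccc
The Cldn11 stretch holds 2 reversed CCAAT boxes, beginning at -66 and -35 from the start, and the Cldn3 stretch holds a reversed GC box at -236 and no CCAAT box. Of 32851 RefSeq promoters of this length, 33.8% hold a CCAAT box and 32.7% a GC box, so these matches are common. Neither stretch holds a cAMP response element (1.55% of promoters) or an androgen receptor half-site (16.1%).

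The other members were taken in the order of their roles. Ocln (ENSMUSG00000021638, chr13:100496507-100552718, reverse strand) encodes occludin, a strand protein, and Cldn5 (ENSMUSG00000041378, chr16:18776847-18778262, forward strand) encodes the claudin best known from blood vessel walls. Tjp1 (ENSMUSG00000030516, chr7:65296165-65527781, reverse strand) encodes the scaffold ZO-1. Gja1 (ENSMUSG00000050953, chr10:56377330-56402513, forward strand) encodes connexin 43, the main gap junction protein between Sertoli cells, and Cdh2 (ENSMUSG00000024304) encodes N-cadherin of the adherens junction. F11r (ENSMUSG00000038235, chr1:171437535-171464603, forward strand), Jam2 (ENSMUSG00000053062, chr16:84774123-84825928, forward strand) and Jam3 (ENSMUSG00000031990, chr9:27097384-27155421, reverse strand) encode the junctional adhesion molecules A, B and C, of which the third is known for its part in shaping spermatids. Jam3 and Cdh2 overlap antisense genes (Gm48796 and Gm15485), with the same doubt about strand as for Cldn3. Jam2 overlaps Gm25908, and Tjp1 overlaps Gm44792, Gm44794 and Gm44795, whose strands are not given here.

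Levels in WT testis were described first, in FPKM, the authors' values per length of transcript and per number of fragments. At P8, Gja1 was the highest of the 10 genes, with 130, 167 and 123 FPKM in the 3 libraries, and F11r followed with 72.6, 67.4 and 58.3. F11r overlapped with Cldn11, the next in order at 94.5, 54.8 and 39.6, and each of Cldn11, Jam3, Jam2 and Tjp1 overlapped with its neighbour in the order. Cldn3 was the lowest, with 1.56, 7.25 and 12.3 FPKM. By P23, whose WT testis libraries stand in the second table, the order had turned over. Cldn3 then stood at 33.6, 42.8 and 43.4 FPKM and overlapped with Cldn11 (38.9, 37.4 and 35.6), and both lay above the remaining 8 genes. Ocln had become the lowest at 1.76, 2.02 and 2.05 FPKM, after 18.9, 18.6 and 13.6 at P8. The levels of P40 were close to those of P23, with 40.6, 43.2 and 34.6 FPKM of Cldn3 and 1.56, 2.18 and 1.93 of Ocln.

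Between P8 and P40 in WT testis, both in the first table, 6 of the 10 members were called, 2 higher and 4 lower at P40. Calls needed an adjusted p below 0.01 in edgeR's quasi-likelihood test together with a 2-fold difference or more, and 59.7% of all genes tested were called in this comparison (31.9% higher and 27.8% lower). Cldn3 rose 9.0-fold (log2 fold change 3.17 ± 0.61 SE, edgeR adjusted p = 0.0017), and its value was 3.84 without WT P8 replicate 3. Cdh2 rose 2.05-fold (1.04 ± 0.17, edgeR adjusted p = 7.0e-04), a call that was lost when library size alone was used for scaling (0.36, edgeR adjusted p = 0.10) and without replicate 3 of either age (0.88 and 0.98). The members that fell were Gja1 (6.41-fold, -2.68 ± 0.14), Ocln (5.57-fold, -2.48 ± 0.14), F11r (4.20-fold, -2.07 ± 0.12) and Jam2 (3.77-fold, -1.91 ± 0.18), each with an edgeR adjusted p of at most 2.5e-05. Jam3 was lower by less than the fold threshold (-0.57 ± 0.12, edgeR adjusted p = 0.0028), and Tjp1 (-0.25 ± 0.08) and Cldn5 (-0.99 ± 0.29) did not pass. For Cldn11 the value was -0.03 ± 0.28, with the sign turning under other settings. The median of the 10 members was -0.78 on the log2 scale, beside -0.03 over all genes tested. FPKM ratios between these ages run lower than the folds, because library size alone puts the median of all genes at -0.70.

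**Figure D1:**
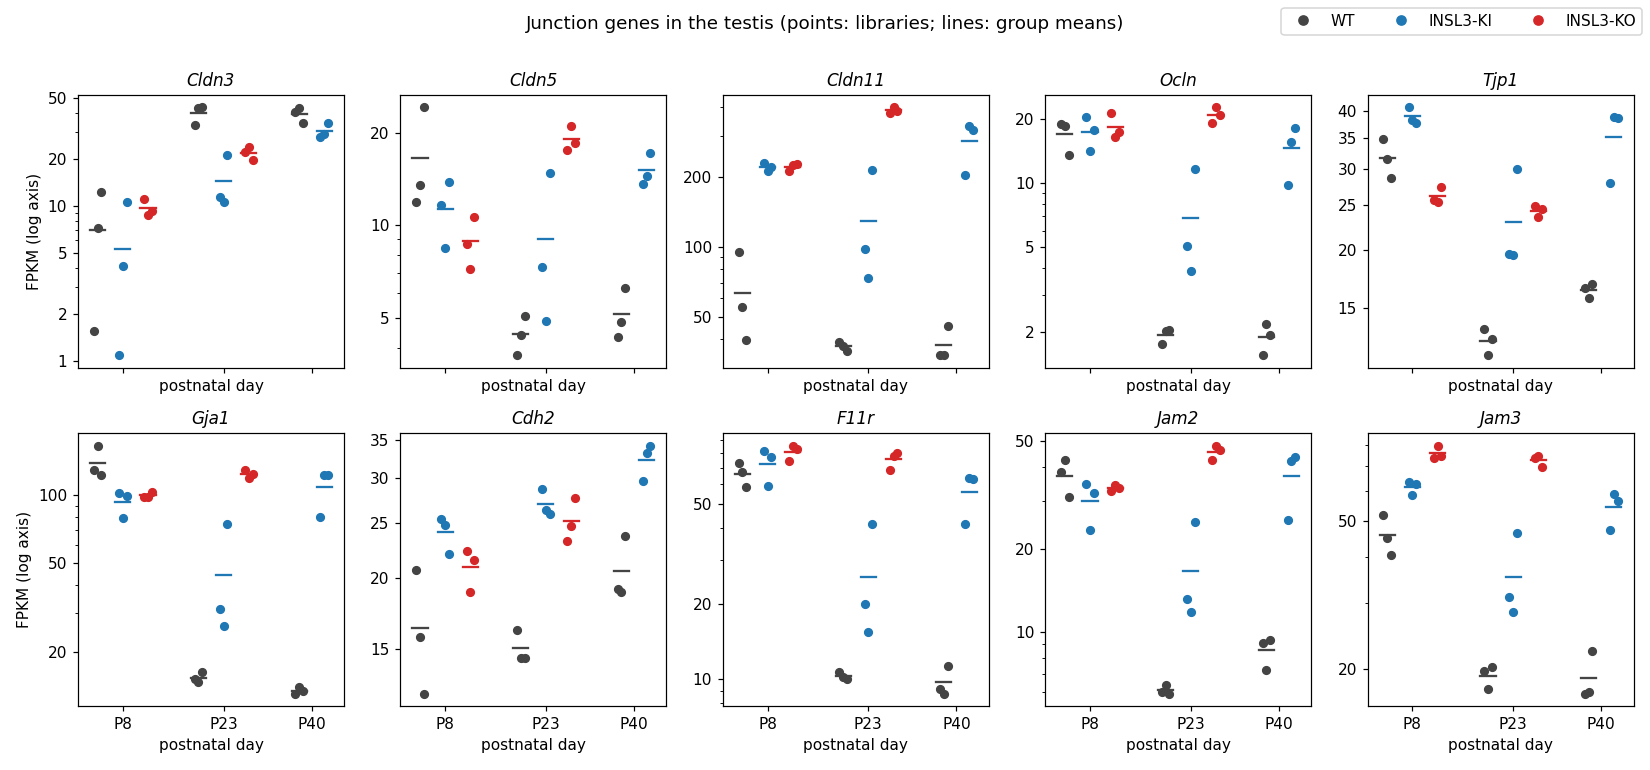
FPKM (log axis) of each junction gene in the 24 testis libraries by postnatal day, with points for libraries and lines for means of 3 libraries, in WT, INSL3-KI and INSL3-KO (no INSL3-KO at P40). Cldn3 lies at 33.6 or more in WT at P23 and P40, while Ocln, Gja1, F11r and Jam2 lie low in WT at these ages and high in INSL3-KO at P23 and INSL3-KI at P40.

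The cell types moved over the same ages. The summed level of 14 Sertoli cell markers was 2727 to 3693 FPKM in WT testis at P8 and 788.1 to 933.8 at P40, and 10 of the 14 were called lower at P40. Over the same libraries 7 spermatid markers went from a sum of 1.77 to 2.47 FPKM to one of 8580.1 to 9745.9. Ocln, Gja1, F11r and Jam2 moved in the direction of the Sertoli cell list, whose median log2 fold change was -2.01. Cldn3 and Cdh2 moved against it, and Cldn11 had no steady direction. The part of these cell types in the values of the members was not tested.

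In WT testis at P8, Cldn3 also went with the markers of epithelia. The keratin gene Krt8, a marker of simple epithelia, had 5.13, 22.1 and 41.9 FPKM in the 3 WT libraries that held 1.56, 7.25 and 12.3 of Cldn3, and the summed level of 5 epithelial markers was 33.9, 97.6 and 154.7. In INSL3-KI at P8, the library with 10.6 FPKM of Cldn3 had 14.5 of Krt8, and those with 1.09 and 4.08 had 0.55 and 0.31, in the opposite order. The libraries labelled INSL3-KO had 11.2, 8.69 and 9.35 FPKM of Cldn3 at P8, with epithelial sums of 69.2, 69.1 and 65.7. At P23 and P40 the same 5 markers summed to 16.1 to 23.7 FPKM in every testis library, with Krt18 at most at 1.00, while Cldn3 was 10.7 to 43.4. High Cldn3 at the later ages thus stood beside low keratin levels, and the spread of Cldn3 in WT at P8 stood beside a spread of keratin levels, whose part in the P8 values was not tested.

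**Figure D2:**
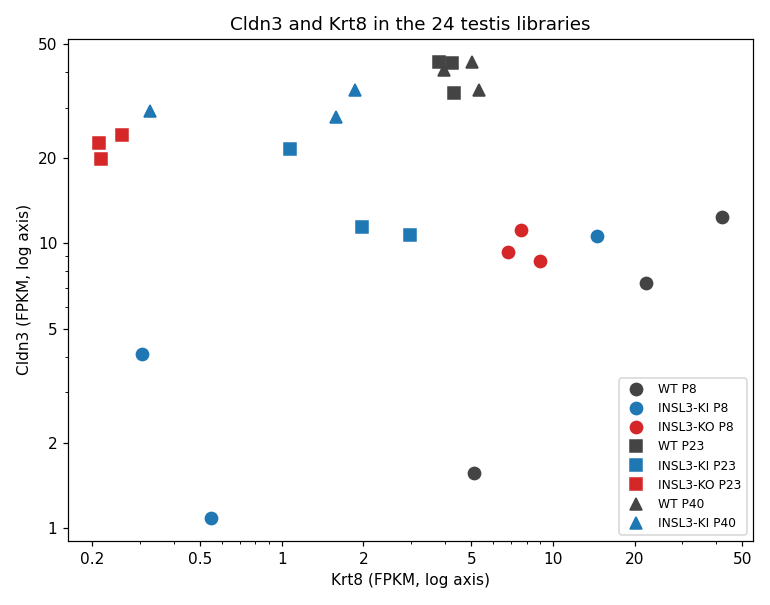
Cldn3 against Krt8 in each of the 24 testis libraries, both in FPKM on log axes, with colour for genotype and shape for age. The libraries of P23 and P40 lie between 10.7 and 43.4 FPKM of Cldn3 at 0.21 to 5.35 of Krt8, and the WT libraries of P8 reach 41.9 of Krt8 with at most 12.3 of Cldn3.

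At P8, Cldn11 was the member called in both mutants against WT, though others also lay apart from WT, as given below. It had 94.5, 54.8 and 39.6 FPKM in WT, 229, 211 and 220 in INSL3-KI, and 212, 225 and 227 in the libraries labelled INSL3-KO. The lowest mutant library was above the highest WT library by more than the whole range of either mutant group. Cldn11 was 3.28-fold higher in INSL3-KI than in WT (log2 fold change 1.71 ± 0.29, edgeR adjusted p = 0.0081) and 3.37-fold higher in the libraries labelled INSL3-KO (1.75 ± 0.28, edgeR adjusted p = 0.0015). It was the 1 member called of 10 in each comparison, in which 6.29% and 13.8% of all genes tested were called (3.03% and 5.44% higher). The call in INSL3-KI was close to the threshold, since it was lost when any of 5 of the 6 libraries was left out (1.49 to 2.07 over all 6, edgeR adjusted p = 0.0052 to 0.048). The call in INSL3-KO was lost without WT replicate 2 (1.67, edgeR adjusted p = 0.011). Between the mutants, Cldn11 differed by -0.06 ± 0.06 (edgeR adjusted p = 0.47).

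The other members moved less at P8. Gja1 had 130, 167 and 123 FPKM in WT, 102, 79.1 and 99.1 in INSL3-KI, and 98.7, 98.4 and 104 in the libraries labelled INSL3-KO, with no overlap of the mutants with WT. Its log2 fold change was -0.68 ± 0.15 in INSL3-KI (edgeR adjusted p = 0.016) and -0.52 ± 0.11 in INSL3-KO (0.0067), below the fold threshold in both. Jam3 was slightly higher in both (0.33 ± 0.10 and 0.68 ± 0.09), also without overlap. Tjp1 had 34.7, 31.6 and 28.7 FPKM in WT. It lay above WT in INSL3-KI (40.8, 38.3 and 37.8) and below WT in the libraries labelled INSL3-KO (25.6, 25.4 and 27.4). Cdh2 in INSL3-KI (25.4, 24.8 and 22.1) lay above WT (20.7, 15.8 and 12.5). Its log2 fold change was 0.34 to 0.62 without 1 library. Cldn5 in the libraries labelled INSL3-KO lay below WT, at -1.14 to -0.58 without 1 library, and was called in 1 of these 6 fits. Ocln and F11r differed from WT by 0.12 or less in both, and the groups overlapped except for F11r in INSL3-KO. Between INSL3-KI and the libraries labelled INSL3-KO, 0 of 10 members were called beside 3.92% of all genes tested, and 2 had an unadjusted p under 0.05, Tjp1 (0.41 ± 0.07) and Jam3 (-0.37 ± 0.06). DESeq2 also called 0, and this comparison runs across the tables. The shares of all genes at the unadjusted p and in DESeq2 are not given here.

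Cell type markers differed at P8 as well. The Sertoli cell list summed to 2727 to 3693 FPKM in WT, 3369 to 4206 in INSL3-KI and 4507 to 4696 in the libraries labelled INSL3-KO. Within it, Amh, the hormone of immature Sertoli cells, was 331.0, 487.8 and 386.2 FPKM in WT and 60.8 to 116.5 in all mutant libraries. Rhox5, a homeobox gene that Sertoli cells switch on after birth, was 1.90, 0.81 and 0.50 in WT and 11.6 to 26.5 in all mutant libraries. The 6 spermatocyte markers summed to 35.6 to 79.5 in WT and to 403.1 to 1163.5 in the mutants, and 7 endothelial markers to 73.5 to 124.2 in WT and 34.6 to 63.7 in the mutants. Cldn5, known from endothelium, was 11.9, 13.5 and 24.2 FPKM in WT, 11.6, 8.42 and 13.8 in INSL3-KI and 8.71, 7.22 and 10.6 in INSL3-KO. The part of these lists in the differences of the members was not tested. With libraries scaled on the Sertoli cell list, which holds Amh and Rhox5, in place of all genes, Cldn11 was at 1.98 ± 0.25 in INSL3-KI and 1.49 ± 0.22 in INSL3-KO, and called in both.

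At P23, INSL3-KO testis differed from WT in 8 of 10 members, 7 higher and 1 lower, both groups being in the second table. Of all genes tested, 64.4% were called in this comparison (31.1% higher and 33.4% lower). Ocln had 1.76, 2.02 and 2.05 FPKM in WT and 19.3, 22.8 and 20.9 in INSL3-KO, and was 7.11-fold higher (log2 fold change 2.83 ± 0.07, edgeR adjusted p = 5.5e-11). Cldn11 had 38.9, 37.4 and 35.6 in WT and 375, 398 and 385 in INSL3-KO, a 6.60-fold difference (2.72 ± 0.05, edgeR adjusted p = 7.1e-12). Each group kept within a narrow range, and the groups lay far apart.

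The gap junction gene and the junctional adhesion molecules went the same way in INSL3-KO at P23. Gja1 was 15.3, 14.7 and 16.2 FPKM in WT and 129, 120 and 124 in INSL3-KO (5.16-fold, 2.37 ± 0.06). Jam2 was 6.02, 6.39 and 5.94 in WT and 42.3, 47.9 and 46.4 in INSL3-KO (4.84-fold, 2.27 ± 0.06). F11r was 10.6, 10.2 and 10.02 in WT and 68.7, 77.8 and 79.7 in INSL3-KO (4.44-fold, 2.15 ± 0.05). No library of one genotype reached the other in these 3 genes, and their edgeR adjusted p was at most 1.8e-10. Cldn5 (2.74-fold, 1.45 ± 0.12) and Jam3 (2.42-fold, 1.28 ± 0.06) rose less. The members that were not called were the scaffold gene Tjp1, which was higher by 0.41 ± 0.06, below the fold threshold, and Cdh2 (0.09 ± 0.07).

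Cldn3 was the member that fell. It had 33.6, 42.8 and 43.4 FPKM in WT and 22.5, 24.0 and 19.8 in INSL3-KO, without overlap. It was 2.84-fold lower on the TMM scale (log2 fold change -1.51 ± 0.11, edgeR adjusted p = 4.4e-07), but scaled by library size alone the value was -0.87, below the fold threshold, with the same direction. Library size alone put the median of all genes at 0.69 in this comparison, so FPKM values understate falls and overstate rises relative to the folds given here. The median of the 10 members was 1.80, beside 0.06 over all genes tested.

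INSL3-KI testes at P23 did not form a tight group, and INSL3-KI replicate 3 stood apart from the other 2. Its Sertoli cell list summed to 3715 FPKM, against 1588 and 1259, and its spermatid list to 79.1, against 537.9 and 699.3. Cldn11 followed with 97.9, 73.2 and 214 FPKM in replicates 1, 2 and 3, Ocln with 5.08, 3.88 and 11.6, and Gja1 with 31.2, 26.1 and 74.8. All 3 libraries nevertheless lay above the 3 WT libraries in these genes. The log2 fold change from WT was 1.21 ± 0.34 for Cldn11 and 1.28 ± 0.37 for Ocln (edgeR adjusted p = 0.025 and 0.026), so neither was called.

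Only Cldn3 was called of the 10 members in INSL3-KI against WT at P23, beside 20.6% of all genes tested (11.8% lower). Its levels were 11.5, 10.7 and 21.5 FPKM in INSL3-KI, all below the WT libraries, a 4.07-fold difference (-2.02 ± 0.25, edgeR adjusted p = 0.0020). Without INSL3-KI replicate 3 it was -2.32 (edgeR adjusted p = 2.9e-06), and the call was lost without INSL3-KI replicate 1 or any WT library (edgeR adjusted p = 0.011 to 0.014). Without INSL3-KI replicate 2, 3 members were called, with the share of all genes in that fit not given here. These groups stand in different tables, and the table cannot be told apart from the genotype.

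Against INSL3-KO at P23, 5 of 10 members were called lower in INSL3-KI, beside 38.2% of all genes tested (13% lower). They were Ocln (-1.51 ± 0.35), Cldn11 (-1.48 ± 0.33), Gja1 (-1.41 ± 0.33), Jam2 (-1.41 ± 0.28) and F11r (-1.33 ± 0.29), with edgeR adjusted p from 0.0046 to 0.0090. These calls depended on the spread within INSL3-KI, with 7 members called without its replicate 3, 1 without its replicate 2, and 0 when its replicate 1 or any INSL3-KO library was left out. Cldn3 differed by -0.48 ± 0.23 (edgeR adjusted p = 0.11), and its groups overlapped. This comparison also runs across the tables. For the fits without a library, the share of all genes called is not given here.

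Within each mutant, the members took different courses from P8 to P23. In the INSL3-KO groups 3 of 10 were called higher at P23, Cldn3 (1.46 ± 0.11), Cldn5 (1.39 ± 0.13) and Cldn11 (1.09 ± 0.04), beside 23.7% of all genes tested (12% higher). The values of the other 7 were 0.17 to 0.72, below the fold threshold. Scaled by library size alone, which put the median of all genes at -0.28, Cldn11 was at 0.83 and no longer called. In INSL3-KI 0 of 10 were called, beside 9.23%, while 6 had an unadjusted p under 0.05 and DESeq2 called 1. Without INSL3-KI replicate 3 of P23, 3 were called. For the unadjusted p, DESeq2 and this last fit, the share of all genes is not given here. Those counts are therefore no result about the members. WT at P8 and P23 stand in different tables, and were not compared by a test.

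At P40, INSL3-KI testis differed from WT, both in the first table, in 5 of 10 members, all higher, beside 47.7% of all genes tested (25.6% higher and 22.1% lower). Gja1 was 13.1, 13.9 and 13.5 FPKM in WT and 79.8, 123 and 124 in INSL3-KI, a 5.27-fold difference (log2 fold change 2.40 ± 0.19, edgeR adjusted p = 2.8e-04). Ocln was 1.56, 2.18 and 1.93 in WT and 9.87, 15.7 and 18.2 in INSL3-KI (5.19-fold, 2.38 ± 0.20). Cldn11 was 34.1, 34.3 and 45.4 in WT and 205, 330 and 318 in INSL3-KI (4.88-fold, 2.29 ± 0.23). INSL3-KI replicate 1 was the lowest of its group in these 3 genes and still lay far above WT.

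Jam2 (3.93-fold, 1.97 ± 0.24) and F11r (3.75-fold, 1.91 ± 0.18) were the other 2 members called at P40, and the edgeR adjusted p of the 5 was at most 7.3e-04. Cldn5 (0.94 ± 0.16) and Jam3 (0.90 ± 0.13) were higher by just under the fold threshold, and passed it when scaled by library size alone, where 8 members were called and the median of all genes was 0.70. Tjp1 (0.40 ± 0.14, edgeR adjusted p = 0.038) and Cdh2 (0.04 ± 0.13) did not pass, and the sign of Cdh2 turned under other settings. Cldn3 was 40.6, 43.2 and 34.6 FPKM in WT and 27.8, 29.3 and 34.6 in INSL3-KI, overlapping at the edge, with a log2 fold change of -0.99 ± 0.14 (edgeR adjusted p = 0.0013) that came within 0.01 of the fold threshold. Leaving out INSL3-KI replicate 1 left 5 members called, and leaving out WT replicate 3 gave 8. Shares of all genes called with library size alone or without a library are not given here. The counts under those settings show only how far the calls of the members held.

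The effect of INSL3-KI differed between P40 and P8 in 5 members. An interaction term over the 4 testis groups of the first table gave 3.0 ± 0.25 for Gja1, 2.37 ± 0.26 for Ocln, 2.31 ± 0.32 for Jam2, 1.80 ± 0.24 for F11r and 1.52 ± 0.39 for Cldn5, as the log2 effect at P40 minus that at P8 (edgeR adjusted p at most 0.0060), beside 45.6% of all genes called in this test (23.2% in that direction). Cldn11, called at both ages, did not differ between them by this test (0.50 ± 0.39, edgeR adjusted p = 0.28), which does not show that the effects were equal.

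Sertoli cell markers rose along with these members. In INSL3-KO at P23 all 14 of the list were called higher, with a median log2 fold change of 2.71, and their sum was 7038 to 7117 FPKM against 952.4 to 986.1 in WT. In INSL3-KI at P40 all 14 were called higher as well (median 2.34), with sums of 3695 to 5878 against 788.1 to 933.8. All 7 spermatid markers were lower in INSL3-KO at P23, with a sum of 11.8 to 14.5 FPKM against 11587.0 to 13933.8, and 6 of 7 in INSL3-KI at P40. Macrophage markers were higher in both (6 of 6), with sums of 301.1 to 335.8 against 35.1 to 36.7 in INSL3-KO. The sums of other somatic lists were also above WT. Of all genes tested, 31.1% were called higher in INSL3-KO at P23 and 25.6% in INSL3-KI at P40. The endothelial counts below did not exceed these shares. Sums in FPKM overstate rises here, since library size alone put the median of all genes at 0.69 and 0.70. In INSL3-KO at P23 the sums were 821.2 to 849.3 FPKM against 229.1 to 241.6 for Leydig cells (3 of 6 called higher), 302.6 to 323.2 against 53.1 to 54.4 for peritubular myoid and smooth muscle cells (5 of 5) and 21.8 to 23.4 against 8.56 to 10.1 for endothelium (2 of 7). In INSL3-KI at P40, 3 of 6, 4 of 5 and 1 of 7 genes of these lists were called higher and 1 Leydig cell gene lower, and each of the 3 sums lay above WT without overlap. INSL3-KI replicate 1 of P40, lowest in Cldn11, Ocln and Gja1, had the lowest Sertoli cell sum of its group (3695 FPKM) and the highest spermatocyte sum (756.0, against 247.3 and 179.8).

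Scaling each library on the Sertoli cell list in place of all genes gives the members relative to Sertoli cell RNA, and moved the median of all genes to -2.66 in INSL3-KO at P23 and to -2.16 in INSL3-KI at P40. On this scale Cldn11 was at 0.00 ± 0.06 and Ocln at 0.11 ± 0.08 in INSL3-KO at P23, and at -0.02 ± 0.20 and 0.07 ± 0.14 in INSL3-KI at P40. Gja1 (-0.35 ± 0.07 and 0.09 ± 0.17), F11r (-0.57 ± 0.07 and -0.39 ± 0.14) and Jam2 (-0.44 ± 0.07 and -0.33 ± 0.17) also lay within 1 log2 unit of the list. None of these 5 passed the fold threshold on this scale, though Gja1, F11r and Jam2 were lower in INSL3-KO at an edgeR adjusted p of at most 5.3e-04, and the median of all genes stood lower than all 5. The remaining 5 members were called lower on this scale in both comparisons, where the median of all genes was itself down by more than the fold threshold. Cldn3 was lowest, with -4.22 ± 0.10 in INSL3-KO at P23 and -3.26 ± 0.26 in INSL3-KI at P40, and lay below the median of all genes in both. Cdh2 (-2.62 ± 0.10 and -2.23 ± 0.24) and Tjp1 (-2.31 ± 0.08 and -1.88 ± 0.22) lay near that median, and Jam3 (-1.44 ± 0.08 and -1.37 ± 0.18) and Cldn5 (-1.26 ± 0.12 and -1.32 ± 0.21) between both sets. The list holds Kitl, one of the genes most like Gja1 in pattern, and it was chosen with earlier results of these data known.

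**Figure D3:**
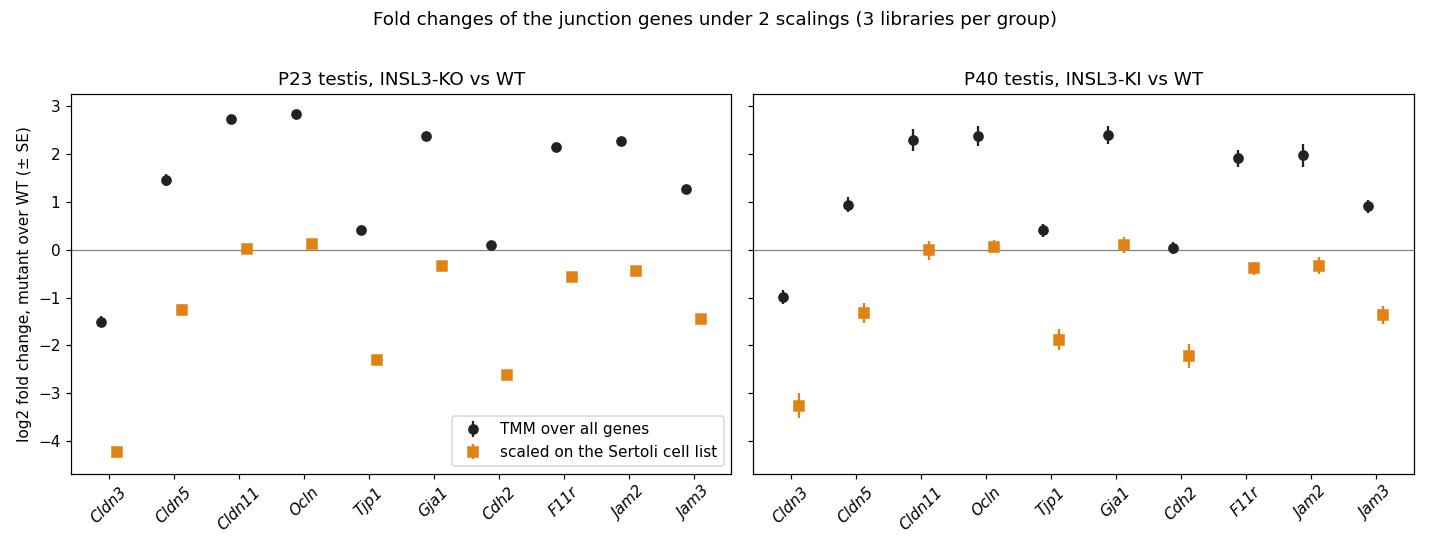
Log2 fold change with standard error of each junction gene in INSL3-KO against WT at P23 and INSL3-KI against WT at P40 (3 libraries per group), on the TMM scale over all genes and scaled on the Sertoli cell list. On the second scale Cldn11, Ocln, Gja1, F11r and Jam2 lie between -0.57 and 0.11, and Cldn3 lies at -4.22 and -3.26.

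Other junction genes were examined as 6 lists, beside 64.4% of all genes called in INSL3-KO at P23 and 47.7% in INSL3-KI at P40. In INSL3-KO at P23, 6 of 10 other claudins tested (of 19) were called higher and 2 lower, and in INSL3-KI at P40, 4 of 9 were higher and 1 lower. Cldn23 rose from 0.42 to 5.57 FPKM in INSL3-KO (log2 fold change 3.05 ± 0.25) and from 0.23 to 3.42 in INSL3-KI at P40 (3.25 ± 0.39). Cldn13, a claudin of blood-forming tissues, had 48, 70 and 86 counts in WT at P23 and 0 in each INSL3-KO library, and was at least 23.2-fold lower (floor of 3 counts per library). Of 24 scaffold and polarity genes, 6 were higher and 6 lower in INSL3-KO, and 6 higher and 3 lower in INSL3-KI at P40. Cgn, the tight junction adaptor cingulin, rose from 7.16 to 59.3 FPKM (2.40 ± 0.05) and from 11.6 to 80.3 (2.17 ± 0.23). Pard6b, a polarity scaffold, rose from 3.32 to 29.0 (2.48 ± 0.07) and from 4.04 to 30.9 (2.31 ± 0.18). Pard6a, its relative, fell at P40 from 26.3 to 8.58 FPKM (-2.21 ± 0.43).

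Adhesion genes of the immunoglobulin family divided. Among 8 genes of this list, 4 were higher and 1 lower in INSL3-KO at P23, and 2 higher in INSL3-KI at P40. Nectin2, a nectin of Sertoli cells, rose from 20.6 to 71.8 FPKM in INSL3-KO (1.24 ± 0.05). Nectin3, its partner on spermatids, fell from 180.5 to 5.85 FPKM (-5.36 ± 0.07). In the adherens junction and desmosome list, 7 of 13 were higher and 1 lower in INSL3-KO, and 5 higher in INSL3-KI at P40, among them Ctnna1, encoding alpha-catenin, which went from 11.3 to 88.3 and from 14.7 to 78.5 FPKM. In the list of ectoplasmic specialization actin genes, 6 of 10 and 5 of 10 were higher and Vasp was lower in both (-1.94 ± 0.07 and -1.19 ± 0.21). Eps8, an actin-bundling protein of that structure, rose from 4.76 to 29.0 FPKM in INSL3-KO and from 5.22 to 28.8 in INSL3-KI at P40. Among other connexins, 1 of 9 was higher and 4 lower in INSL3-KO, and 2 of 10 higher and 1 lower in INSL3-KI at P40. Gja6, a connexin of the X chromosome, was the 1 that rose in INSL3-KO (5.19 to 37.3 FPKM, 2.19 ± 0.09). All of these values are edgeR fits with an adjusted p of at most 0.0042. The counts at P40 were unsteady, and without 1 library ran from 0 to 4 genes called for the immunoglobulin family, 1 to 6 for other connexins, 2 to 5 for the adherens junction and desmosome list and 3 to 6 for other claudins. Scaled on the Sertoli cell list, the signs of several genes that rose turned. On that scale the median of all genes was -2.66 in INSL3-KO and -2.16 in INSL3-KI at P40, below every value that follows. Nectin2 was then called lower in both comparisons (-1.48 and -1.06), and Cgn (-0.32 and -0.15), Ctnna1 (-0.40 and -0.51), Eps8 (-0.75 and -0.48) and Gja6 (-0.53 and -0.44) lay below 0 in both, while Cldn23 stayed above 0 (0.34 and 0.93) and Pard6b was at -0.24 and 0.0069.

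Several further genes of these lists were called at low levels. In INSL3-KO at P23, Cldn10 rose from 0.030 to 1.23 FPKM and Cldn9 fell from 0.19 to 0.061. Crb1, a polarity gene best known from the retina, fell from 0.31 to 0.064 FPKM, Marveld3 from 0.50 to 0.037 and the desmosome gene Dsp from 0.43 to 0.14. In INSL3-KI at P40, Cldn13 and Marveld3 were also lower (-4.82 ± 0.67 and -2.79 ± 0.45), and Cldn10 was higher (2.04 ± 0.40). At higher levels, the focal adhesion gene Vcl rose from 5.84 to 27.0 FPKM in INSL3-KO and from 9.20 to 42.3 in INSL3-KI at P40. The actin regulator Wasl rose from 6.63 to 37.6 in INSL3-KO, the kinase gene Fyn from 14.2 to 73.5 in INSL3-KI at P40, and Nectin2 and Gja6 rose there as well (1.25 ± 0.23 and 1.86 ± 0.18). Esam, an adhesion gene of blood vessels, was higher in both (1.13 ± 0.17 and 1.01 ± 0.21), as was Gja5 in INSL3-KI at P40 (1.14 ± 0.27). Scaled on the Sertoli cell list, Esam was called lower in both (-1.58 and -1.27) and Vcl in INSL3-KO (-1.16, and -0.72 at P40). These values lay above the median of all genes on that scale (-2.66 and -2.16). On that scale Wasl in INSL3-KO was at -0.85, and Fyn and Gja5 at P40 were at -0.53 and -1.13. Cldn10 was at 1.98 in INSL3-KO and -0.27 at P40. At P8 the lists were mostly not called, as were most of all genes tested. In INSL3-KI 6.29% of all genes were called against WT, and 13.8% in the libraries labelled INSL3-KO. Beside these shares, 0 of 11 other claudins were called in either mutant.

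The genes whose pattern was most like that of a member over the 24 testis libraries were found by Pearson's r of log2 CPM, among genes with a mean of at least 10 CPM. They share groups, ages and library scaling, and r is a description only. Cldn11 was closest to Mapk9 (r = 0.99), Mum1l1 (0.99) and Gca (0.98), and Gja1 to Slc38a2, Kitl and Ids (0.99 each). Ocln was closest to Usf1, Abcd3 and Zdhhc2 (0.99 each), F11r to Syap1, Ryk and Sdc4 (0.99 each), and Jam2 to Ctsa, Pgam1 and Ywhah (0.99 each). Cldn3 went with Rbm47 (0.93), Gstz1 (0.91) and Erp29 (0.91), Cldn5 with Hist1h1c, Parm1 and Tgfbi (0.91 to 0.92), and Tjp1 with Cep170b (0.95), Acaca (0.95) and Ncoa1 (0.93). Cdh2 was closest to Rnf144b, Atxn2 and Zbtb18 (0.94 to 0.95) and Jam3 to Clec12b, Nt5c3 and Plat (0.98). Among the members themselves, r was 0.96 to 0.99 between any pair of Ocln, Gja1, F11r and Jam2, and -0.64 to -0.49 between Cldn3 and each of these 4.

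The 2 deposited units differed for Jam2. Counts divided by FPKM and depth give the length that the FPKM values imply, and for 6 members (Cldn3, Cldn5, Cldn11, Gja1, Cdh2 and Jam3) it stayed between 97.6% and 102.6% of the median of the table in every library with at least 30 counts. For Jam2 it was 62.5%, 69.7% and 84.0% of that median in WT testis at P40 and 83.7% in INSL3-KI replicate 2 at P23, and 97.3% to 102.3% in the other testis libraries. Jam2 in WT at P40 is therefore higher in FPKM (9.11, 7.27 and 9.36) than its 868, 863 and 1455 counts would give at the usual length. Ocln varied between 81.2% and 109.9%, Tjp1 between 90.3% and 105.1% and F11r between 90.9% and 103.9%. The folds above come from counts and do not use this length. What the authors' length stands for is not given in the sources used here.

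In the gubernaculum of WT mice at P8, most of the 10 genes stood far below their testis level. Cldn11 had 1.00, 1.21 and 0.39 FPKM there against 94.5, 54.8 and 39.6 in testis, and was 52.2-fold lower (log2 fold change -5.70 ± 0.48, edgeR adjusted p = 6.5e-05). Ocln, with 0.12, 0.39 and 0.11 FPKM, was 52.5-fold lower (-5.71 ± 0.46, and -6.59 without WT gubernaculum replicate 2). In all, 7 of 10 members were called lower than in testis and 0 higher, beside 28.4% of all genes tested (14.3% lower). The call of Cldn3 (-3.29 ± 0.73, edgeR adjusted p = 0.0066) was lost without any of 5 of the 6 libraries (-2.63 without WT testis replicate 3). Jam3 (0.85 ± 0.14) and Cldn5 (1.03 ± 0.27, edgeR adjusted p = 0.014) were the 2 members at a higher level in gubernaculum, and neither was called.

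Mutant gubernaculum at P8 held claudin 3 and occludin RNA that WT gubernaculum all but lacked. Cldn3 had 0.70, 0.51 and 0.34 FPKM in WT (33, 25 and 17 counts), 109.7, 169 and 121 in INSL3-KI, and 66.6, 68.0 and 63.9 in INSL3-KO. It was 198-fold higher in INSL3-KI (log2 fold change 7.63 ± 0.29, edgeR adjusted p = 6.0e-07) and 111-fold higher in INSL3-KO (6.80 ± 0.19, edgeR adjusted p = 9.2e-07). Ocln was 7.40, 8.29 and 6.49 FPKM in INSL3-KI and 5.74, 6.14 and 5.86 in INSL3-KO, 26.1-fold and 25.3-fold above WT (4.71 ± 0.45 and 4.66 ± 0.47), and the values were 5.56 and 5.53 without WT replicate 2, the WT library with most Ocln. In both genes every mutant library was above every WT library by a wide margin.

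In all, 5 members were called in INSL3-KI gubernaculum at P8, 4 higher and 1 lower (24.1% of all genes tested, 14.4% higher and 9.7% lower), and 6 in INSL3-KO, all higher (30.7%, and 15.5% in that direction). F11r (2.05 ± 0.20 and 1.75 ± 0.19) and Cldn5 (1.35 ± 0.13 and 1.18 ± 0.10) were higher in both. Jam3 was lower in INSL3-KI (-1.30 ± 0.13), with 69.6, 52.2 and 59.1 FPKM in WT and 34.5, 27.5 and 30.9 in INSL3-KI, and its value in INSL3-KO was -0.68 ± 0.11. Gja1 (1.84 ± 0.07) and Cldn11 (1.99 ± 0.38) were called higher in INSL3-KO, with Cldn11 still at 3.49 to 4.34 FPKM, and the second call was lost without INSL3-KO replicate 2 (1.92, edgeR adjusted p = 0.014). Fitting all gubernaculum groups together left 3 members called in INSL3-KO, with the share of all genes in that fit not given here. INSL3-KO and WT stand in different tables here.

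The epithelial markers moved with Cldn3 and Ocln. All 5 were called higher in both mutants, and their sum was 18.0 to 63.3 FPKM in WT, 738.1 to 844.4 in INSL3-KI and 319.4 to 344.9 in INSL3-KO. Epcam, an adhesion protein of epithelia, was 0.47, 1.21 and 0.38 FPKM in WT and 137.5, 144.2 and 151.6 in INSL3-KI. The 5 peritubular myoid and smooth muscle markers summed to 1087.0 to 1318 FPKM in WT, 7251 to 8666 in INSL3-KI and 3218 to 3427 in INSL3-KO, with 4 of 5 called higher and 1 lower in each mutant. The endothelial list summed to 135.8 to 164.9 in WT, 186.9 to 227.1 in INSL3-KI and 207.8 to 219.9 in INSL3-KO, with 1 of 7 called higher in each. The skeletal muscle list fell from 13786.1 to 14490.4 FPKM in WT to 537.9 to 971.1 in INSL3-KI and 3867.5 to 4117.2 in INSL3-KO. The Sertoli cell list, of which 11 genes could be tested in gubernaculum, summed to 211.2 to 245.0 FPKM in WT, 738.1 to 1848.0 in INSL3-KI and 832.9 to 1616.9 in INSL3-KO, while its defining markers Amh and Rhox5 were at or near 0 in every gubernaculum library (at most 1.54 and 0.29 FPKM). The part of these lists in the values of Cldn3, Ocln and Cldn5 was not tested.

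At P23 the gubernaculum libraries of a group differed widely. Cldn3 was 1.69, 1.04 and 29.0 FPKM in WT and 140, 0.030 and 315 in INSL3-KI, where replicate 2 had 2 counts. The epithelial list summed to 661.8, 4.22 and 1037.6 FPKM in these INSL3-KI libraries, and in WT replicate 3, the highest of its group in Cldn3, to 152.3. INSL3-KI replicate 2 had instead the highest endothelial sum (703.4, against 223.8 and 99.9) and the highest Cldn5 (170 FPKM, against 47.0 and 20.5). By edgeR 0 of 10 members were called between INSL3-KI and WT, beside 2.57% of all genes tested. An unadjusted p under 0.05 was found for 5, and DESeq2 called 2, with the shares of all genes not given here. Jam3 was 22.7, 35.2 and 34.3 FPKM in WT and 11.9, 14.0 and 19.5 in INSL3-KI, without overlap (-1.31 ± 0.20, edgeR adjusted p = 0.014).

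**Figure D4:**
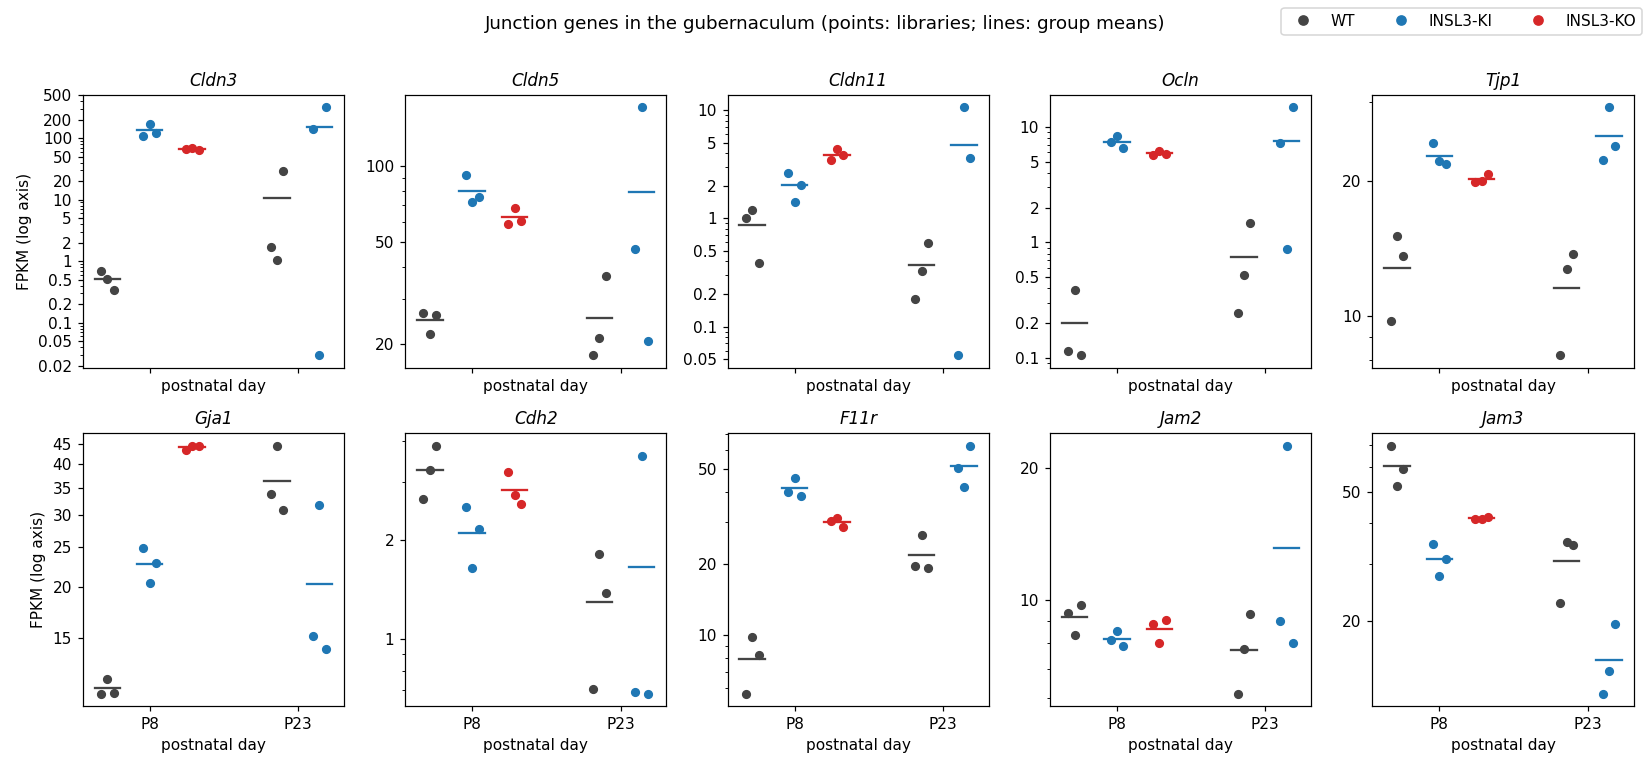
FPKM (log axis) of each junction gene in the 15 gubernaculum libraries by postnatal day, with points for libraries and lines for means of 3 libraries, in WT, INSL3-KI and INSL3-KO (P8 only). At P8 Cldn3 lies at 0.34 to 0.70 in WT and at 63.9 to 169 in the mutants, and at P23 the 3 INSL3-KI libraries run from 0.030 to 315.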

How the data were processed

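RNA of 39 libraries (13 groups of 3, given by the labels as biological replicates) was sequenced by the authors as paired-end mRNA reads. The submitters' processing notes name HISAT2 and the build GRCm38. The program that counted reads and the annotation are not given in the sources used here. The authors deposited raw counts per gene, unnormalized, in 2 tables of 27 and 12 libraries. The authors also deposited FPKM values for the same libraries, which serve here as levels.

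Both count tables were joined on the 21561 Ensembl genes that they share, which held 94.2% to 97.9% of the counts of a library (29861447 to 45260372 in total). Each comparison was fitted over its own libraries by edgeR 4.0.16 (R 4.3.3) with TMM factors, filterByExpr (minimum count 10, total 15), a quasi-likelihood test and Benjamini-Hochberg adjustment, after the scripts were tested on simulated data. Genes were called where the adjusted p was below 0.01 and the groups differed 2-fold or more. P-values measure the spread between the 3 libraries of a group. No pair of libraries within a group was found to be a duplicate. All 10 members were named, and of each list of other junction genes up to 2 called genes per direction by size of change, of which some are not reported here. Members and lists, cell type markers included, were chosen with earlier results of these data known. Alternatives were DESeq2 1.42.0, limma 3.58.1 on log2 FPKM (pseudocounts 1 and 0.1), library size alone, no count filter, all groups of a tissue in 1 fit, a looser threshold, a replicate block, scaling on 14 Sertoli cell markers, CPM in place of FPKM, and leaving out each library.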

Additional observations from a re-analysis of the deposited data

Results flagged for a closer look

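The effect of INSL3-KI in testis differed between P40 and P8 by the interaction test in 5 of the 10 junction genes (45.6% of all genes tested were called), and is listed here for that difference between ages. As the log2 effect at P40 minus that at P8, it was 3.0 for Gja1, 2.37 for Ocln, 2.31 for Jam2, 1.80 for F11r and 1.52 for Cldn5 (edgeR adjusted p of 1.4e-05 to 0.0060, 3 libraries per group). All 5 were higher in INSL3-KI than in WT at P40, whereas at P8 their log2 fold changes ran from -0.68 to 0.03. The call of Cldn5 was lost in 6 of the 12 fits that left out a library, with values of 1.15 to 1.72. With scaling on the Sertoli cell list, whose median log2 fold change was 2.34 at P40 and -0.25 at P8, none of the 5 was called. The value of Gja1 was then 0.66 ± 0.23, that of Ocln 0.022, that of Cldn5 -0.71, that of F11r -0.53 and that of Jam2 -0.023. The part of Sertoli cell content in these differences was not tested.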

How the results depend on the processing

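Of the counts of called members, that of INSL3-KO against WT at P23 (8) was 8 without any one library and 7 to 9 under the other alternatives. The exception was Sertoli cell scaling (5, all lower, with the median of all genes at -2.66). With an adjusted p under 0.05 and no fold threshold the counts, each with the share of all genes that passed, were 3 (P8 testis, INSL3-KI against WT, 36.0%), 5 (INSL3-KO against WT, 54.4%), 2 (INSL3-KI against INSL3-KO, 32.6%), 3 (P23, INSL3-KI against WT, 50.7%), 9 (P40, 76.98%), 2 and 10 (P23 against P8 in INSL3-KI and INSL3-KO, 44.6% and 71.7%), 9 (P8 gubernaculum, INSL3-KI, 54.7%) and 2 (P23 gubernaculum, 13.4%). For INSL3-KI against WT at P23 DESeq2, the fit of all groups and limma with pseudocount 0.1 called 3, and library size and limma with pseudocount 1 called 2. For these and the settings that follow, the share of all genes called is not given here. The counts therefore show only how far the calls of the members held. For P40 library size and both limma fits called 8. DESeq2 called 1 and the fit of all groups 2 for P23 against P8 in INSL3-KI, and 2 and 1 in P23 gubernaculum, and the fit of all groups called 3 in P8 gubernaculum of INSL3-KO. Sertoli cell scaling called 2 for INSL3-KI against INSL3-KO at P23 and 1 for P23 against P8 in INSL3-KO. Without 1 library the counts ran from 0 to 1 and 0 to 2 at P8 (INSL3-KI and INSL3-KO against WT), 0 to 3 and 0 to 7 at P23 (INSL3-KI against WT and INSL3-KO), 5 to 8 at P40, and 0 to 3 for P23 against P8 in INSL3-KI.

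As CPM with TMM, WT P40 levels in percent of WT P8 were 52.0 for Cldn5, 101.2 for Cldn11, 18.6 for Ocln, 86.7 for Tjp1, 16.1 for Gja1, 211.7 for Cdh2, 24.6 for F11r and 69.4 for Jam3. No filter on low counts reversed no member.

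Sertoli cell scaling reversed 54 values. At P8 these were Ocln (0.16 in INSL3-KI, -0.21 in INSL3-KO) and F11r (-0.16 in INSL3-KO), and in INSL3-KI against INSL3-KO Ocln 0.071, Cldn11 0.18, F11r 0.11, Gja1 0.053 and Jam2 0.015. In INSL3-KI against WT at P23 they were Cldn5 -0.90, Cldn11 -0.15, Ocln -0.090, Tjp1 -0.86, Gja1 -0.44, Cdh2 -0.79, F11r -0.55, Jam2 -0.50 and Jam3 -0.90. In INSL3-KO at P23 they were Cldn5 -1.26, Tjp1 -2.31, Gja1 -0.35, Cdh2 -2.62, F11r -0.57, Jam2 -0.44 and Jam3 -1.44, and in INSL3-KI against INSL3-KO F11r was 0.070, Tjp1 1.49, Jam3 0.59, Cldn5 0.42 and Cldn3 0.98. At P40 they were Cldn5 -1.32, Cldn11 -0.016, Tjp1 -1.88, Cdh2 -2.23, F11r -0.39, Jam2 -0.33 and Jam3 -1.37. Between WT P40 and P8 they were Cldn5 0.94, Cldn11 2.01, Tjp1 1.75, Jam2 0.087 and Jam3 1.43. Between P23 and P8 they were Tjp1 0.30, Jam3 0.23, Cldn11 0.092 and Cldn5 0.57 in INSL3-KI, and Tjp1 -0.27, Jam3 -0.21 and F11r -0.27 in INSL3-KO. In the interaction they were Cldn5 -0.71, Cldn11 -1.87, Tjp1 -2.17, F11r -0.53, Jam2 -0.023 and Jam3 -1.82. By construction this setting sets values relative to genes that themselves moved.

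Other reversals were of log2 values of members that were not called. At P8 in INSL3-KI, Ocln was 0.037 with library size and 0.032 and 0.034 with limma (pseudocounts 1 and 0.1), and F11r was -0.038 in the fit of all groups. Cdh2 was -0.12 with DESeq2 in INSL3-KO at P23, and -0.13 with DESeq2 and -0.018 in the fit of all groups at P40. Cldn11 between WT P40 and P8 was 0.12 with DESeq2 and 0.024 in the fit of all groups. Tjp1 in INSL3-KI against INSL3-KO at P23 was 0.0053 with DESeq2. From P8 to P23 Cldn5 in INSL3-KI was 0.12 with DESeq2 and 0.14 in the fit of all groups, and in INSL3-KO, with library size and limma (pseudocounts 1 and 0.1), Tjp1 was -0.085, -0.098 and -0.10, Jam3 -0.032, -0.061 and -0.061 and F11r -0.088, -0.10 and -0.10. In the interaction, Cldn3 was 0.050 with library size and 0.041 and 0.14 with limma (pseudocounts 1 and 0.1), and Cdh2 was 0.075, 0.071 and 0.066. Leaving out a library gave -1.52 to 0.16 for Cldn3, -0.16 to 0.033 for Ocln and -0.062 to 0.14 for F11r in INSL3-KI at P8, -0.056 to 1.07 for Cldn3 and -0.019 to 0.15 for Ocln in INSL3-KO at P8, -0.0063 to 0.70 for Cldn5 in INSL3-KI at P23, -0.0027 to 0.14 for Cdh2 in INSL3-KO at P23, -0.27 to 0.37 for Cldn11 between WT P40 and P8, -1.18 to 0.47 for Cldn3 in the interaction, -0.15 to 0.019 for Tjp1 in INSL3-KI against INSL3-KO at P23, -0.32 to 0.27 for Cldn5 from P8 to P23 in INSL3-KI, and, in P23 gubernaculum, -1.29 to 0.54 for Cdh2 and -0.25 to 0.80 for Jam2. The cause was not tested.

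The labels do not say that replicate numbers mark a shared litter or day, and in no comparison did every same-numbered pair correlate above 0.1, although among the 4 groups of the interaction WT P8 with INSL3-KI P40 did (0.11 to 0.15). With the replicate number as a block, the count at P8 in INSL3-KI was 0 (Cldn11 1.80, edgeR adjusted p = 0.013), Cldn3 in WT gubernaculum against testis was -2.92 (edgeR adjusted p = 0.033), Cldn11 between WT P40 and P8 was 0.050, and Cdh2 in P23 gubernaculum was -0.32. Depth limits the folds of members with few counts, such as Cldn3 in WT gubernaculum at P8 (17 to 33 counts per library).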
